A study of Mus musculus with 6 samples.

Results

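The microRNAs (miRNAs) of the hairpins miR-191, miR-425, miR-423, miR-186 and miR-361, which are often taken as reference genes, were followed in a small RNA library of mouse liver. Their members are both arms of each hairpin, 10 mature miRNAs chosen by name among 1963 distinct mouse sequences. The library came from a mouse given AAV9, an adeno-associated virus that is used to carry genes into tissues, here with Cre recombinase under the promoter of the cardiac troponin T gene Tnnt2 and an element called miR122 (AAV-Tnnt2-Cre-miR122). Cre recombines DNA at loxP sites, and the labels name no floxed allele, strain, sex, age or time after injection, nor whether the element encodes the miRNA or is a target of it. The labels list 3 such libraries (replicates 1, 2 and 4) and 3 of mice given the same vector without the element (AAV-Tnnt2-Cre, replicates 10, 11 and 12). Only replicate 2 of the Cre-miR122 group was analysed, and 5 of the 6 libraries were not used here. With 1 library there was no replicate, no control and no test between groups. A level here is therefore 1 measurement, and whether the members were stable between animals or groups was not tested.

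A miRNA hairpin is cut by Drosha and Dicer into a short duplex whose strands are the 5p and the 3p arm. Usually 1 strand is kept by an Argonaute protein and the other is degraded. Bases 2 to 8 of the kept strand, the seed, pair with target mRNAs, so a shift of the 5′ end changes the seed while a shift of the 3′ end does not. Reference miRNAs are used as denominators in quantitative PCR, where their level is taken to be stable between the samples compared. Many are found in many tissues at moderate levels. An assay built on 1 mature sequence can read its end forms with different efficiency.

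The 10 mature sequences are shown because the counts depend on their exact ends, and the seed is in capitals. They were read from the deposited table, and all 10 matched the RefSeq entry of the same name on GRCm38.p6.
miR-191-5p: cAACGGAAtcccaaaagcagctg
miR-191-3p: gCTGCACTtggatttcgttccc
miR-425-5p: aATGACACgatcactcccgttga
miR-425-3p: aTCGGGAAtgtcgtgtccgcc
miR-423-5p: tGAGGGGCagagagcgagacttt
miR-423-3p: aGCTCGGTctgaggcccctcagt
miR-186-5p: cAAAGAATtctccttttgggct
miR-186-3p: gCCCTAAGgtgaattttttggg
miR-361-5p: tTATCAGAatctccaggggtac
miR-361-3p: tCCCCCAGgtgtgattctgatttgt

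No seed was shared between members. Among the other mouse sequences the seed of miR-425-5p was found in miR-489-3p and that of miR-423-5p in miR-6921-5p, and the other 8 seeds were found in no other mouse sequence. The GC content ranged from 40.9% in miR-186-5p to 65.2% in miR-423-3p. miR-361-3p was the longest at 25 nt and miR-425-3p the shortest at 21 nt.

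On the mm10 (GRCm38) assembly, Mir191 (ENSMUSG00000105497.1, chr9:108568319-108568392) and Mir425 (ENSMUSG00000065579.1, chr9:108568777-108568861) lie on the plus strand with 384 bases between them. Both overlap exonic sequence of 4833445I07Rik, a long noncoding RNA gene, and the nearest protein-coding gene on the same strand, Dalrd3, begins 1024 bases beyond Mir425. An annotated miRNA gene, Gm24083, lies opposite Mir191 on the minus strand. How the counting treated strand is not stated in these sources, and the part of Gm24083 in the reads of miR-191 was not tested. Mir423 (ENSMUSG00000065518.2, chr11:77078064-77078172, minus strand) lies in an intron of Nsrp1, a gene of a splicing regulatory protein. Mir186 (ENSMUSG00000065431.1, chr3:157544279-157544349, plus strand) lies in an intron of Zranb2, which encodes a splicing-associated zinc finger protein. Mir361 (ENSMUSG00000065510.1, chrX:113074824-113074893, minus strand) lies in an intron of Chm, the gene of Rab escort protein.

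The library held 8163802 reads over distinct sequences, 6661069 of them on mouse entries, and 546 of the 1963 mouse sequences had a read. Hepatocyte markers (miR-122-5p, miR-192-5p, miR-194-5p and miR-148a-3p) had reads for 4 of 4 and took 62.6% of mouse reads, of which miR-148a-3p alone took 57.9% and the other 3 took 4.69%. Markers of striated muscle took 15.8%, with 3 of 3 found, stellate and fibroblast markers 2.10% with 4 of 4, and the endothelial marker miR-126a-3p 0.891%. The muscle and stellate sums also rested mostly on 1 marker each. Among the muscle markers miR-1a-3p had 980271 reads, miR-206-3p 68854 and miR-133a-3p 915. Among the stellate and fibroblast markers miR-143-3p had 135826 reads and the lowest, miR-214-3p, had 62. Red cell and leukocyte markers took 0.00462% and 0.00303%. The part of these cells in the levels below was not tested, and in a bulk sample fewer cells of a type and less RNA per cell cannot be told apart. Intervals in parentheses are exact 95% intervals (Clopper-Pearson for shares, binomial for ratios). They cover the counting error of reads alone, and PCR copies were not separated.

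The members held a small share of the mouse reads in this liver library. Together they held 2917 reads, 0.0438% of mouse reads (0.0422 to 0.0454). mmu-miR-191-5p alone had 1513 of these reads, or 51.9%, and both arms of miR-423 together had 1022, or 35.0%. Of the 10 members, 9 had a read and 7 had at least 10. Among all 1963 distinct mouse sequences, 546 had a read and 303 had at least 10. The median over all 10 members, with the member of 0 reads included, was 101 reads. The median over the 546 mouse sequences that had any read was 18.

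By mouse entries, miR-191-5p was highest with 1513 reads, 227 reads per 1000000 mouse reads (RPM; 216 to 239). It ranked 63 of 1963, and 88.5% of the detected mouse sequences had fewer reads. Its neighbours in rank were miR-382-5p with 1542 reads and miR-200b-3p with 1425. mmu-miR-423-3p came next with 610 reads, 91.6 RPM (84.5 to 99.1), at rank 83. mmu-miR-423-5p followed with 412 reads, 61.9 RPM (56.0 to 68.1), at rank 96. These 3 levels were separated beyond counting error, since miR-191-5p exceeded miR-423-3p 2.48-fold (2.26 to 2.73) and miR-423-3p exceeded miR-423-5p 1.48-fold (1.30 to 1.68).

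The remaining members were lower. mmu-miR-361-3p had 166 reads, 24.9 RPM (21.3 to 29.0), at rank 142. mmu-miR-186-5p had 108 reads, 16.2 RPM (13.3 to 19.6), and mmu-miR-361-5p had 94 reads, 14.1 RPM (11.4 to 17.3). Those last levels were not separable by counting, with a ratio of 1.15 (0.863 to 1.53). mmu-miR-425-5p, which shares its gene region with the top member, had only 12 reads, 1.80 RPM (0.931 to 3.15), at rank 292. Its interval ran from 0.517 to 1.75 times its value, against 0.950 to 1.05 times for miR-191-5p.

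The 3 lowest members lay at the limit of detection. mmu-miR-191-3p and mmu-miR-425-3p had 1 read each, as had 97 mouse sequences in all. mmu-miR-186-3p had 0 reads, which allows up to 0.450 RPM when 3 reads are taken as the floor.

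**Figure D1:**
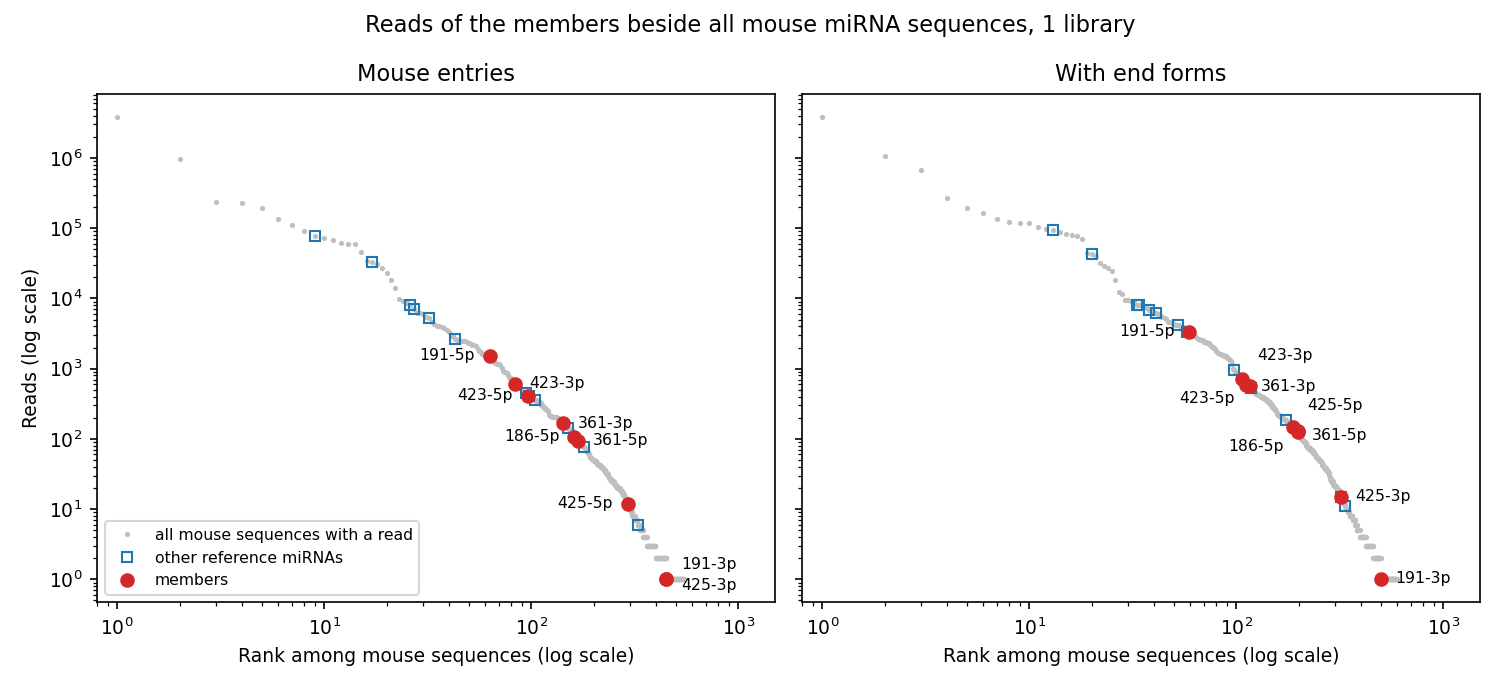
Reads (log axis) against rank (log axis) of all mouse sequences with a read in the 1 library, by mouse entries on the left and with end forms on the right; red points are members, labelled without the miR prefix, and blue squares other reference miRNAs. miR-191-5p lies at rank 63 on the left and 59 on the right, and miR-425-5p moves from 12 to 148 reads.

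A read was counted for an entry of the deposited list, which holds many species, and a read that ends at another base of the same hairpin could be counted for another species' entry. End forms are such entries of the same miRNA number whose sequence lies in the mouse hairpin. Their reads were added to the member they overlap, and the total for shares was raised in the same way for all mouse miRNAs, to 8032202 reads. For the members, 16 end forms are recorded and 15 of them had reads, 2702 in all, which took the members from 2917 to 5619 reads and to 0.0700% of the raised total (0.0681 to 0.0718). The longer of 2 nested forms had more reads in 16 of 24 nested pairs, so a read was not counted for every form that it contains. The other 44 same-named sequences, which could not be placed on a mouse arm, had 0 reads, and so had 25 sequences of any name, partly the same, that differ from a member hairpin by 1 base.

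How far end forms changed a value differed from member to member, and so did the number of end forms recorded. That number was 4 for miR-425-3p, 3 for miR-425-5p and 2 for miR-191-5p, miR-423-5p and miR-361-3p. It was 1 for miR-423-3p, miR-186-5p and miR-361-5p, and 0 for miR-191-3p and miR-186-3p. An end that no entry records could not add reads. The increase was 12.3-fold for miR-425-5p, 3.57-fold for miR-361-3p and 2.20-fold for miR-191-5p. It was 1.36-fold for both miR-423-5p and miR-361-5p, 1.18-fold for miR-423-3p and 1.17-fold for miR-186-5p, and miR-425-3p went from 1 read to 15. The total rose as well, so the share of miR-423-3p became 0.975 times and that of miR-186-5p 0.968 times its value by mouse entries. In rank 4 members rose and 6 fell with end forms, among them miR-423-3p from 83 to 107, miR-423-5p from 96 to 116 and miR-186-5p from 161 to 199. The 6 include miR-191-3p and miR-186-3p, which kept 1 and 0 reads and fell only as other sequences gained reads. Rises and falls were not counted over all mouse sequences, so these counts describe the members alone. The mouse entry held under 50% of the reads in 3 of the 7 members with at least 100 reads including end forms. Over all 204 mouse arms with that many reads this was so in 82, or 40.2%, so the members' share is near the background. The median share held by the mouse entry was 73.4% for these 7 members and 69.3% for all 204 arms.

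In miR-191-5p the reads were divided almost evenly between 2 lengths. The 23-nt mouse entry had 1513 reads, 45.4% of the arm (43.7 to 47.1). The form that lacks the last base had 1509, and the form that lacks the last 2 had 311. The forms are shown because an assay for 1 length faces the other at the same abundance.
miR-191-5p, mouse entry: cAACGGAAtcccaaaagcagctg
miR-191-5p, 1 nt shorter: cAACGGAAtcccaaaagcagct
miR-191-5p, 2 nt shorter: cAACGGAAtcccaaaagcagc
With these forms the arm had 3333 reads, 415 RPM of the raised total (401 to 429), and stayed the highest member, at rank 59.

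In miR-425-5p the mouse entry was the rarest of the 3 forms found. It had 12 reads, 8.11% of the arm (4.26 to 13.7), beside 99 reads of the form 1 nt longer and 37 of the form 1 nt shorter. A recorded form that starts 1 nt later had 0 reads.
miR-425-5p, 1 nt longer: aATGACACgatcactcccgttgag
miR-425-5p, 1 nt shorter: aATGACACgatcactcccgttg
miR-425-5p, mouse entry: aATGACACgatcactcccgttga
The arm thus had 148 reads, 18.4 RPM (15.6 to 21.6), and moved from rank 292 to 188. Of the 204 arms, 21 had a lower share in the mouse entry. With end forms miR-425-5p stood beside miR-361-5p with 128 reads and miR-186-5p with 126, and neither neighbouring ratio, 1.16 (0.906 to 1.48) and 1.02 (0.788 to 1.31), was separable from 1.

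In miR-361-3p the 25-nt mouse entry had 166 reads, 28.0% of the arm (24.5 to 31.8), and shorter forms had more. A form that lacks the last 3 bases had 277 reads and a form that lacks the last 2 had 149. A form that lacks only the last base is not among the recorded entries.
miR-361-3p, mouse entry: tCCCCCAGgtgtgattctgatttgt
miR-361-3p, 2 nt shorter: tCCCCCAGgtgtgattctgattt
miR-361-3p, 3 nt shorter: tCCCCCAGgtgtgattctgatt
The arm came to 592 reads, 73.7 RPM (67.9 to 79.9). It then stood level with miR-423-5p at 559 reads, a ratio of 1.06 (0.942 to 1.19), although by mouse entries miR-423-5p exceeded it 2.48-fold (2.07 to 2.99).

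In miR-423-5p, miR-423-3p, miR-361-5p and miR-186-5p the mouse entry had the most reads. It held 73.7% of miR-423-5p (69.8 to 77.3), beside 117 reads 1 nt longer and 30 reads 1 nt shorter. It held 73.4% of miR-361-5p (64.9 to 80.9), beside 34 reads 1 nt shorter, and 85.7% of miR-186-5p (78.4 to 91.3), beside 18 reads 1 nt longer. For miR-191-3p and miR-186-3p no end form is recorded, so another end of these arms could not be seen.

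**Figure D2:**
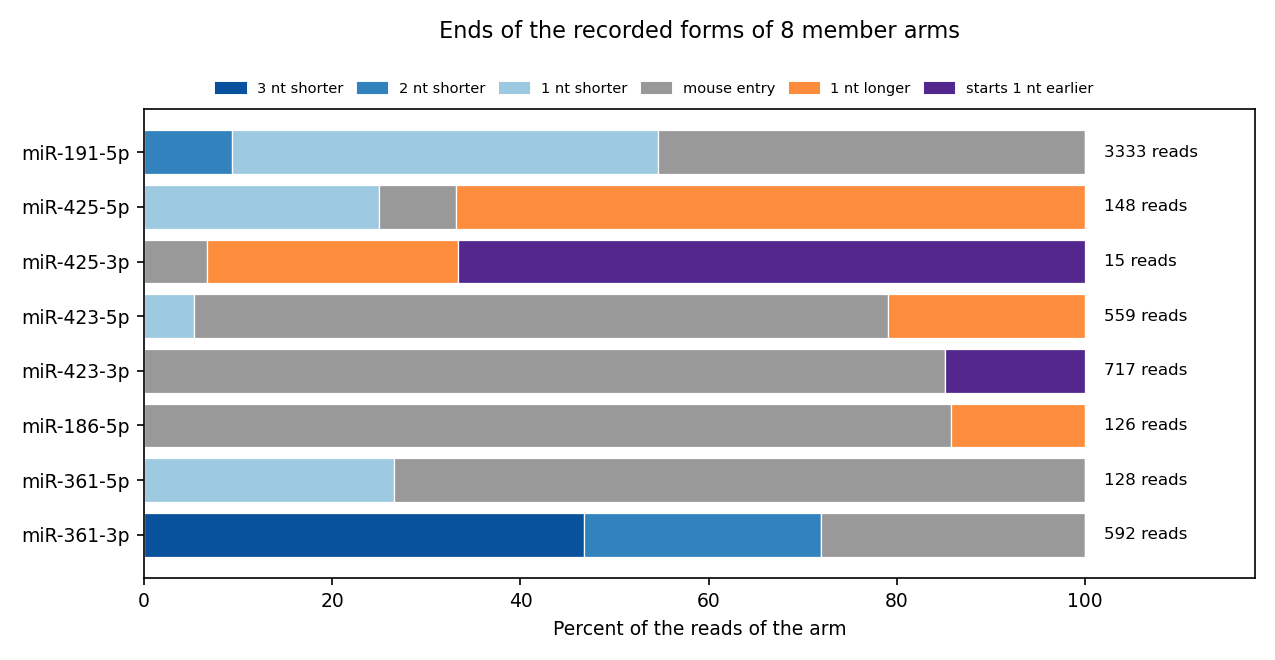
Percent of the reads of each arm (horizontal axis) held by the mouse entry and by recorded end forms, for the 8 member arms that have end forms with reads; colours give the end relative to the mouse entry, and purple joins all forms that start 1 nt earlier. The mouse entry (grey) holds 8.11% of miR-425-5p, 28.0% of miR-361-3p, 45.4% of miR-191-5p and 85.7% of miR-186-5p.

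Nearly all of the added reads kept the seed. Of the 2702 end-form reads 2585 start at the base of the mouse entry, and 117, which is 2.08% of all member reads, start elsewhere. Of these, 107 belong to miR-423-3p, as a form that starts 1 nt earlier and held 14.9% of the arm (12.4 to 17.7). Its seed was found in no mouse entry.
miR-423-3p, mouse entry: aGCTCGGTctgaggcccctcagt
miR-423-3p, 1 nt earlier: aAGCTCGGtctgaggcccctcagt
The other 10 reads belong to miR-425-3p, in which 3 forms that start 1 nt earlier held 10 of the 15 reads of the arm.

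The hairpin of miR-423, chr11:77078064-77078172 on the minus strand, is shown because both of its arms were abundant. Capitals mark the 5p and then the 3p arm, which are 13 nt apart.
Mir423: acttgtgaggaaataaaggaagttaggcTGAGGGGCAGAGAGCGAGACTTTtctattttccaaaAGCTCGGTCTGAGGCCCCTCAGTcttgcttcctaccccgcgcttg
By mouse entries the 5p arm had 412 reads and the 3p arm 610, so that the 3p arm exceeded the 5p arm 1.48-fold (1.30 to 1.68) and the 5p arm held 40.3% of the reads (37.3 to 43.4). With end forms the arms had 559 and 717 reads, and the 3p arm was 1.28-fold higher (1.15 to 1.44). Counting only forms that keep the start, and with it the seed, the arms had 559 and 610 reads, a ratio of 1.09 (0.971 to 1.23) that was not separable from 1. The 5p arm has recorded forms with 2 other 3′ ends and the 3p arm has none, so other 3′ ends of the 3p arm could not be seen.

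The arms of miR-361 were also of similar order by mouse entries. The 3p arm had 166 reads and the 5p arm 94, a 1.77-fold excess of the 3p arm (1.36 to 2.30). With end forms the arms had 592 and 128 reads and the 3p arm was 4.63-fold higher (3.81 to 5.64). The 3p arm was thus the higher of the pair under either counting, and the size of its excess changed 2.62-fold.

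The other 3 hairpins had reads mainly on the 5p arm. For miR-191 the arms had 1513 and 1 reads by mouse entries (ratio 271 to 59799), and 3333 and 1 with end forms. For miR-425 they had 12 and 1, a ratio of 12 with a wide interval (1.78 to 513), and 148 and 15 with end forms, a ratio of 9.87 (5.79 to 18.1). With forms of the same start alone they had 148 and 5, a ratio of 29.6 (12.4 to 92.5). For miR-186 they had 108 and 0, so that the 5p arm had 36 times the floor of 3 reads. Its share of the hairpin was 100% (96.6 to 100). With end forms the arms of miR-186 had 126 and 0 reads, a 5p share of 100% (97.1 to 100).

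**Figure D3:**
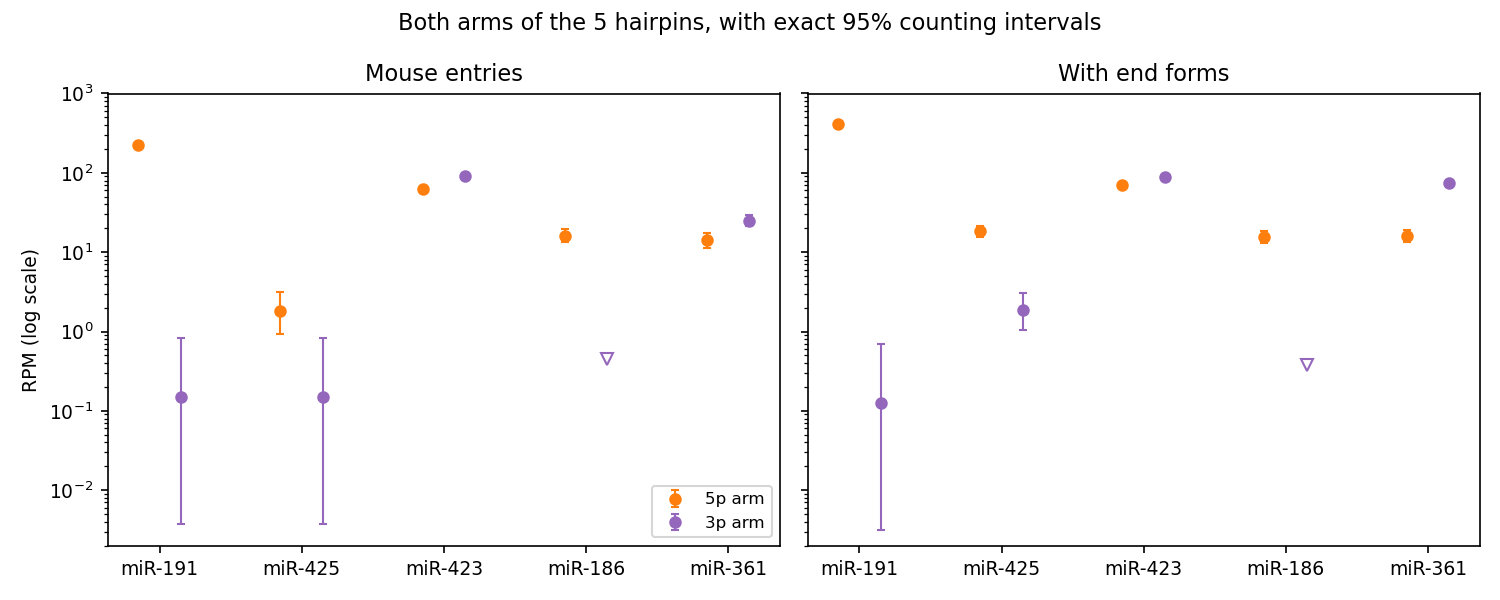
RPM (log axis) of the 5p and 3p arm of each hairpin, by mouse entries on the left (of mouse reads) and with end forms on the right (of the raised total); bars are exact 95% counting intervals and open triangles the level of the 3-read floor for an arm with 0 reads. The arms of miR-423 lie close together in both panels, and those of miR-361 part on the right.

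Balanced arms were uncommon among the hairpins compared in this library. The comparison holds hairpins with a 5p and a 3p entry of the same name. Those with a copy number in only 1 arm's name, such as let-7f and miR-26a, are left out. An arm shared by 2 hairpins, such as miR-199a-3p, is counted in each. Among 120 mouse hairpins with both arms listed and at least 100 reads by mouse entries, the lower arm had at least 1 read per 10 of the higher in 22, or 18.3%, and a median of 99.7% of reads lay on the higher arm. Of the 4 member hairpins in this comparison, 2 passed that limit, miR-423 and miR-361. With end forms 34 of 143 hairpins passed, or 23.8%, and 3 of 5 member hairpins did, miR-425 being the addition, at 15 reads against 148. With forms of the same start miR-425 did not pass, at 5 against 148. A lower arm with at least 1 read per 2 of the higher was found in 6 hairpins by mouse entries, miR-423 and miR-361 among them, and in 10 with end forms, among them miR-423 alone of the members. With 4 or 5 members these counts are a description, and no difference from other hairpins was tested.

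**Figure D4:**
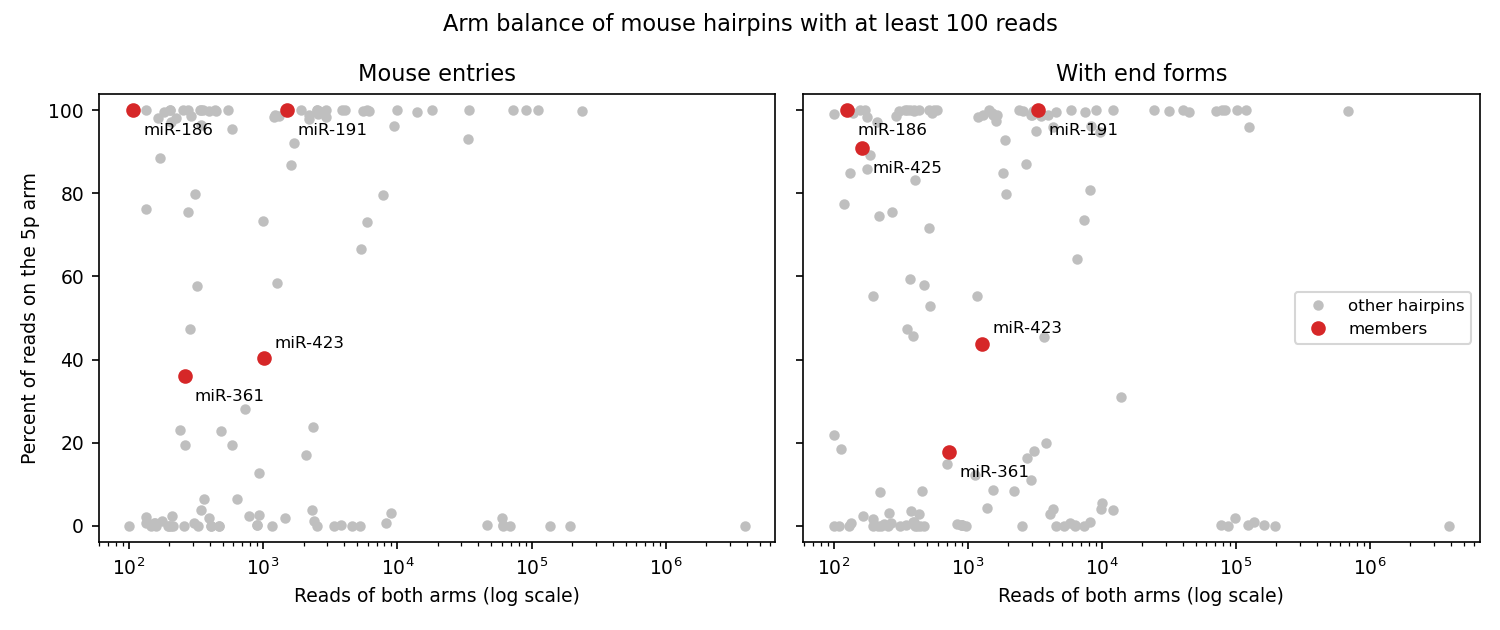
Percent of reads on the 5p arm against the reads of both arms (log axis) for mouse hairpins with at least 100 reads, 120 by mouse entries on the left and 143 with end forms on the right; red points are the members. miR-423 lies at 40.3% and 43.8%, miR-361 moves from 36.2% to 17.8%, and miR-191 and miR-186 lie at or near 100%.

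miR-191 and miR-425 come from hairpins 384 bases apart on the same strand, yet their reads differed widely. By mouse entries the miR-191 hairpin had 1514 reads and the miR-425 hairpin 13, or 116 to 1 (67.9 to 219). With end forms they had 3334 and 163, or 20.5 to 1 (17.5 to 24.1). The gap thus narrowed 5.69-fold when the end forms of both hairpins were counted. Adapter ligation favours some ends over others, and its part in the remaining gap was not tested.

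Other miRNAs that serve as references covered a wider range. A list of 13 (miR-16-5p, miR-103-3p, miR-93-5p, miR-24-3p, miR-26a-5p, miR-92a-3p, miR-25-3p, let-7a-5p, miR-484, miR-345-5p, miR-324-5p, miR-30e-5p and miR-151-3p) held 136195 reads, 2.04% of mouse reads (2.03 to 2.06), of which miR-26a-5p had 78540. By mouse entries 6 of the 13 exceeded miR-191-5p, and with end forms 8 did. miR-16-5p had 408 reads, close to miR-423-5p, and 958 with end forms. miR-103-3p had 7042 reads and rose 1.14-fold with end forms, while miR-92a-3p rose 43.3-fold, from 77 to 3336 reads, which put it beside miR-191-5p at 3333. miR-345-5p had 0 reads by mouse entries and 11 when end forms were counted.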

How the data were processed

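Liver total RNA was turned into a library by ligating adapters to both RNA ends, PCR and selection of inserts of 18 to 40 bp, then sequenced as single reads, per the labels' protocols. The authors deposited raw counts, as whole numbers, of the cleaned reads of 1 library for each of 48885 entries of a mature miRNA list of many species, per the file headers. The column matched the title of Cre-miR122 replicate 2 alone. The submitters' processing notes name the mm10 build. The counting program, its settings and the list's release are not given in the sources at hand.

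Entries of identical sequence had equal counts, and each of the 30721 distinct sequences was used once. End forms had to lie in 1 of 2202 GENCODE M21 hairpins (GRCm38) and to overlap the mouse sequence by at least 15 nt, more than any other. Names were matched on the miRNA number. Sequences and coordinates came from RefSeq (GRCm38.p6) and GENCODE. All 10 members and the 13 other references were named. The members, lists and alternatives were chosen with earlier results of these data known. The calculation of intervals and the placing of end forms were checked on simulated data. Python 3.11.15, pandas 2.3.3 and SciPy 1.17.1 were used.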

Additional observations from a re-analysis of the deposited data

How the results depend on the processing

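The members held 0.0438% of mouse reads. This became 0.0357% of the reads over all sequences, 0.0700% with end forms, 0.104% without miR-148a-3p in the total and 0.0520% without miR-1a-3p and miR-206-3p. The 13 other references held 2.04%, and under the same alternatives 1.67%, 2.18%, 4.86% and 2.43%. A minimum of 10 reads left both shares within their intervals. The ratio of 5p to 3p reads of miR-423 was 0.675, then 0.780 with end forms of the same or any name and 0.916 with forms of the same start. That of miR-361 went from 0.566 to 0.216 under all 3, and the ratio of miR-191 to miR-425 from 116 to 20.5, 21.8 and 20.5. These moves follow from the reads that each alternative adds or removes. The ratios of miR-191 and miR-425 stayed within their intervals by mouse entries, which are wide at 1 read of the 3p arm, although that of miR-425 was 12, 9.87 and 29.6 by mouse entries, with end forms and with forms of the same start. The ratio of the 5p reads of miR-186 to the 3-read floor went from 36 to 42. The share of an arm in its mouse entry was the same with end forms of any name in all 9 members with a read. Ends that no entry records were not seen. No replicate could be left out. No paired analysis was possible because counts of a single library were used and no replicate number occurs in both groups. Depth limits miR-191-3p, miR-425-3p, miR-186-3p and, by its mouse entry, miR-425-5p.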

Other observations

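A reference miRNA enters a ratio as its denominator, so the reads of the liver miRNA miR-122-5p were set against each member with at least 10 reads. The vector given to this mouse carried the element called miR122, and its part in the reads of miR-122-5p was not tested. By mouse entries miR-122-5p had 236027 reads, which is 156 per read of miR-191-5p (148 to 164), 387 per read of miR-423-3p (357 to 420) and 573 per read of miR-423-5p (520 to 633). It was 1422 per read of miR-361-3p, 2185 per read of miR-186-5p, 2511 per read of miR-361-5p and 19669 per read of miR-425-5p (11260 to 38066). With end forms in both terms miR-122-5p had 685102 reads, and the ratio was 206 to miR-191-5p (199 to 213), 956 to miR-423-3p, 1226 to miR-423-5p and 1157 to miR-361-3p. It was 4629 to miR-425-5p (3941 to 5476), 5352 to miR-361-5p and 5437 to miR-186-5p. The choice of counting thus moved the ratio between 0.235-fold for miR-425-5p and 2.49-fold for miR-186-5p. These moves include the rise of miR-122-5p itself from 236027 to 685102 reads. The reads of miR-186-5p rose only 1.17-fold, so its move lay mostly in miR-122-5p. Within either counting, in 1 library, these ratios describe how the denominators differ. They say nothing of a change in miR-122-5p between animals, which was not tested.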
